A study of Rattus norvegicus with 20 samples.

Results

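The 4 liver arrays whose titles carry the replicate number 1, 1 in each of 4 diets, were compared with the 16 arrays numbered 2 to 5, out of 20 arrays in all. The members were taken from the ending of the title, the number itself having been picked for description with earlier results of these data known, and the labels do not say what the number stands for. Each array holds liver RNA of a different male Sprague-Dawley rat, an outbred laboratory strain, 4 weeks old on arrival. The rats were given a commercial diet for 5 days and then 1 of 4 experimental diets for 21 days. The casein diet held 200 g of casein per kg. In the conventional soybean diet, equal shares of the protein came from casein and from the soybean cultivar Fukuyutaka. In the 1:1 high-isoflavone diet, equal shares came from casein and from the high-isoflavone cultivar Yukipirika, and in the 3:1 high-isoflavone diet casein and Yukipirika were mixed 3 to 1. All 4 diets share casein as a protein source, and titles were matched to diets by their wording. The rats on arrays had been chosen within each diet for an average food intake. Levels are log2 signals of a 3′ expression array, on which a difference of 1 is 2-fold, and the measured quantity is bulk liver RNA, in which fewer cells of a type and less RNA per cell cannot be told apart.

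The array carries controls that do not come from the rat. Bacterial transcripts with a poly-A tail (dap, lys, phe and thr) are added to the RNA before labelling, and a second set (bioB, bioC, bioD and cre) is added before hybridisation, so that the first follows labelling and hybridisation and the second hybridisation alone. Liver RNA itself is dominated by hepatocyte transcripts for plasma proteins and for lipid, sugar and nitrogen metabolism, and many of these move with feeding, time of day and stress.

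The number 1 arrays stood apart in measures of the whole array as well as in single genes. The dap spike-in read 3.81 on the casein array, 4.04 on the conventional soybean array, 3.98 on the 3:1 high-isoflavone array and 4.12 on the 1:1 high-isoflavone array, against a lowest value of 4.11, a median of 4.51 and a highest value of 4.89 over the 16 others. It was the lowest array of its diet in 4 of 4 diets, a difference of -0.473 (exact permutation test of number 1 within diets, two-sided, p = 0.0016, the smallest this design allows; adjusted p = 0.0152 over 19 measures). The interquartile range of all probe sets was also lowest on number 1 in 4 of 4 diets, at 1.41, 1.48, 1.43 and 1.48 against a range of 1.43 to 1.53 elsewhere (difference -0.0491, exact permutation p = 0.0016, adjusted p = 0.0152). The 5th percentile of levels was higher by 0.122 (exact permutation p = 0.0032, adjusted p = 0.0203), and highest of its diet in 3 of 4 diets.

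The other measures did not pass the adjustment. The 95th percentile of levels differed by -0.0103 (exact permutation p = 0.342, adjusted p = 0.465). The phe spike-in differed by -0.259 (exact permutation p = 0.0368, adjusted p = 0.117), the cre spike-in by -0.103 (exact permutation p = 0.0512, adjusted p = 0.139) and 5S ribosomal RNA by 0.385 (exact permutation p = 0.0304, adjusted p = 0.116). Of the other poly-A controls, lys differed by -0.122 (exact permutation p = 0.403) and thr by -0.186 (exact permutation p = 0.122). Lys read 0.469 to 1.28 on number 1 and 0.644 to 1.38 on the others. These values are around the 5th percentile of levels (0.889 to 1.10 on the others), where a lower signal is hard to see. Of the other hybridisation controls, bioB differed by -0.139 (exact permutation p = 0.13), bioC by -0.0283 (exact permutation p = 0.722) and bioD by -0.115 (exact permutation p = 0.149). The 3′ minus 5′ signal, a measure of RNA integrity and labelling, differed by 0.0943 for beta-actin (exact permutation p = 0.581, adjusted p = 0.69) and by 0.00514 for GAPDH (exact permutation p = 0.88, adjusted p = 0.88). A further pair of arrays had a raised floor: the lowest value on the 3:1 high-isoflavone number 1 array was 0.471 and that on casein number 5 was 0.447, against -1.56 to -0.879 on the others of their diets. Without both arrays the dap difference was -0.461 (exact permutation p = 0.02, adjusted p = 0.076) and the interquartile range difference -0.0428 (exact permutation p = 0.01, adjusted p = 0.0633), in a design of 100 arrangements whose smallest p is 0.01. The part of the spike-in, the range and the floor in the differences of single genes was not tested beyond the alternative fits given beside them.

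**Figure D1:**
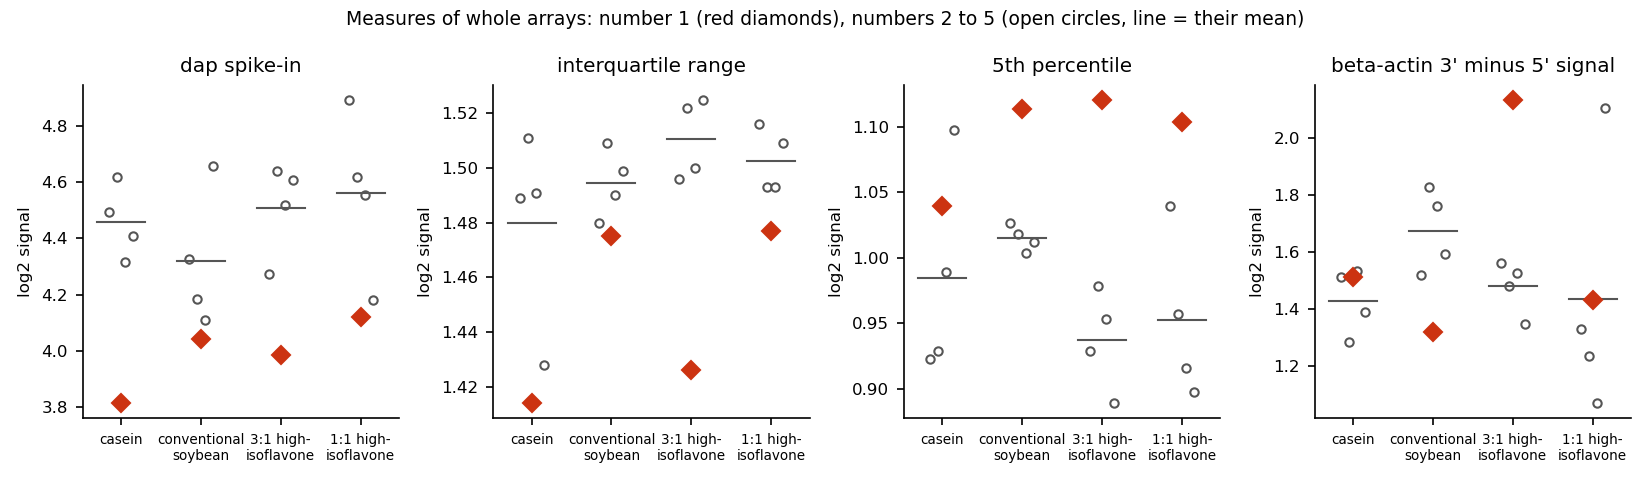
Log2 signal of 4 whole-array measures by diet, with the number 1 array as a red diamond, numbers 2 to 5 as open circles and their mean as a line. The number 1 array is the lowest of its diet for the dap spike-in and the interquartile range in all 4 diets, high for the 5th percentile in 3 of 4, and in no fixed place for the beta-actin 3′ minus 5′ signal.

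The difference between number 1 and the others also depended on level. In the 10% of probe sets with the lowest mean the median difference was 0.17, and it fell through 0.08 and 0.05 in the next groups to -0.02 in the 10% with the highest mean. The dimmest group lay above 0 in each diet, at 0.07 for casein, 0.12 for conventional soybean, 0.26 for 3:1 high-isoflavone and 0.22 for 1:1 high-isoflavone. Calls of single probe sets were found at all levels, with 1.59% called higher in the dimmest group and 2.42% in the brightest. Lower calls were rarer at the dim end, at 0.18% of the dimmest group and 1.12% of the brightest.

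**Figure D2:**
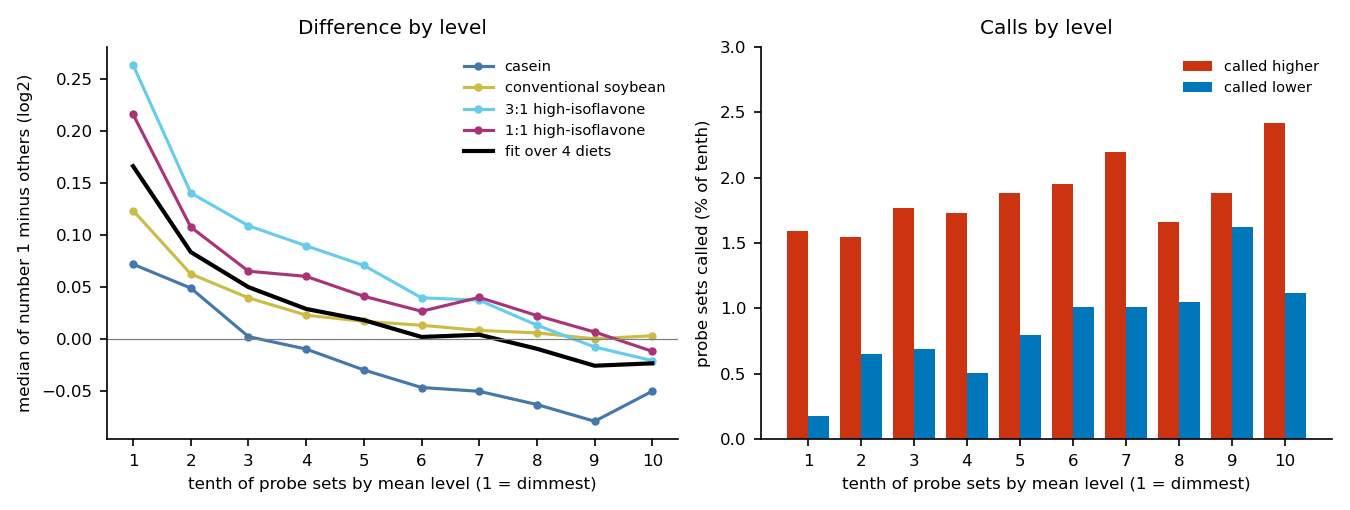
Left, the median over probe sets of number 1 minus the others (log2), by groups of 10% of the probe sets ordered by mean level, for each diet and for the fit over 4 diets (black); the medians fall from 0.17 at the dim end to -0.02 at the bright end. Right, the percent of each group called higher (red) or lower (blue), with calls in all 10 groups and the fewest lower calls in the dimmest.

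Across single probe sets, 755 of 27702 (2.73%) differed between number 1 and the others within diets at an adjusted p under 0.05, 516 higher (1.86%) and 239 lower (0.863%) on number 1. Higher calls made up 68.3%, and 56.8% after quantile normalization (532 of 936). The median size of a called difference was 0.559, and 46 passed 2-fold, 27 higher and 19 lower. The number 1 array was the highest or the lowest of its own diet, on the same side in all 4 diets, in 864 probe sets (3.12%), of which 462 were called. In 198 probe sets (0.715%) the 4 number 1 arrays lay beyond all 16 others, 150 above and 48 below. Number 1 took 13.5% of the sum of squares within diets pooled over all probe sets, where an equal share of the degrees of freedom would be 6.25%. Per probe set the median share was 7.2%, and 54.6% among the called ones, which were chosen for it. The count rested on each number 1 array: it was 479 without the casein array, 179 without the conventional soybean array, 249 without the 3:1 high-isoflavone array and 32 without the 1:1 high-isoflavone array, and 1184 without casein number 5. With the dap spike-in as a covariate, an alternative chosen after its difference was seen, 176 probe sets were called, 89 of them among the 755. Dap overlaps with number 1, so calls can be lost in this fit whatever the part of dap.

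The 15 largest higher calls were taken among genes at or above the median level with the same sign in 4 diets. They ran from 2.59-fold down to 1.67-fold. Over all called probe sets, dimmer ones and those without 1 symbol included, the largest size was log2 1.41. Mtmr11, a member of the myotubularin family of phosphoinositide phosphatases, read 5.54, 5.72, 5.68 and 5.82 on the number 1 arrays of casein, conventional soybean, 3:1 and 1:1 high-isoflavone diets, against a lowest of 3.96, a median of 4.27 and a highest of 4.99 on the 16 others. The groups did not overlap, and the difference was 2.59-fold (log2 1.37, SE 0.124, adjusted p = 1.24e-05). Prcd, a small protein of photoreceptor discs, read 4.38, 4.72, 5.10 and 5.34 in the same order of diets, against 3.34 to 4.04 with a median of 3.64. It too showed no overlap, at 2.35-fold (log2 1.23, SE 0.122, adjusted p = 3.17e-05). Gpsm1, a modulator of G-protein signalling and the highest-level of these genes, read 6.40, 6.45, 6.56 and 6.52 against 5.29 to 6.13 with a median of 5.68. Its groups were separate at 1.74-fold (log2 0.80, SE 0.108, adjusted p = 0.00157), and a further probe set differed by -0.06. The uncharacterised LOC102547703 read 4.13, 4.87, 4.05 and 4.89 against 2.98 to 4.02, again with no overlap (2.18-fold, adjusted p = 0.0011). These 4 genes kept their call in all 31 alternative settings, leaving out each of the 20 arrays included.

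The other 11 of the 15 largest higher calls differed by 1.67 to 2.28-fold. Pnmt, which makes adrenaline from noradrenaline, read 3.42, 4.86, 4.15 and 3.32 against 2.01 to 3.49, so that the casein and 1:1 high-isoflavone arrays overlapped the others. Pgm2l1, which makes glucose-1,6-bisphosphate, read 3.15, 3.10 and 3.26 and then 4.06 on the 1:1 high-isoflavone array, against 1.98 to 2.94. Pola2, a subunit of the DNA polymerase alpha and primase complex, read 3.59, 3.47, 3.38 and 3.78 against 2.41 to 3.25. Prl8a3, a placental member of the prolactin family, read 2.96, 3.49, 3.18 and 3.64 against 1.82 to 2.90. For Pgm2l1, Pola2 and Prl8a3 the groups did not overlap. The sarcomere protein Myoz2, the potassium channel Kcnk9, the phosphatase Dusp18, the growth factor Tgfb2, the ectodysplasin gene Eda, the aldo-keto reductase Akr1b10 and Zc2hc1b were called as well, each with some overlap. Akr1b10 was the gene of this group whose other probe set was also called (log2 0.51, adjusted p = 0.0309). Other probe sets differed by 0.56 for Pgm2l1, by 0.36 for Tgfb2, and by -0.1, 0.23 and -0.12 for Dusp18, none of them called.

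**Figure D3:**
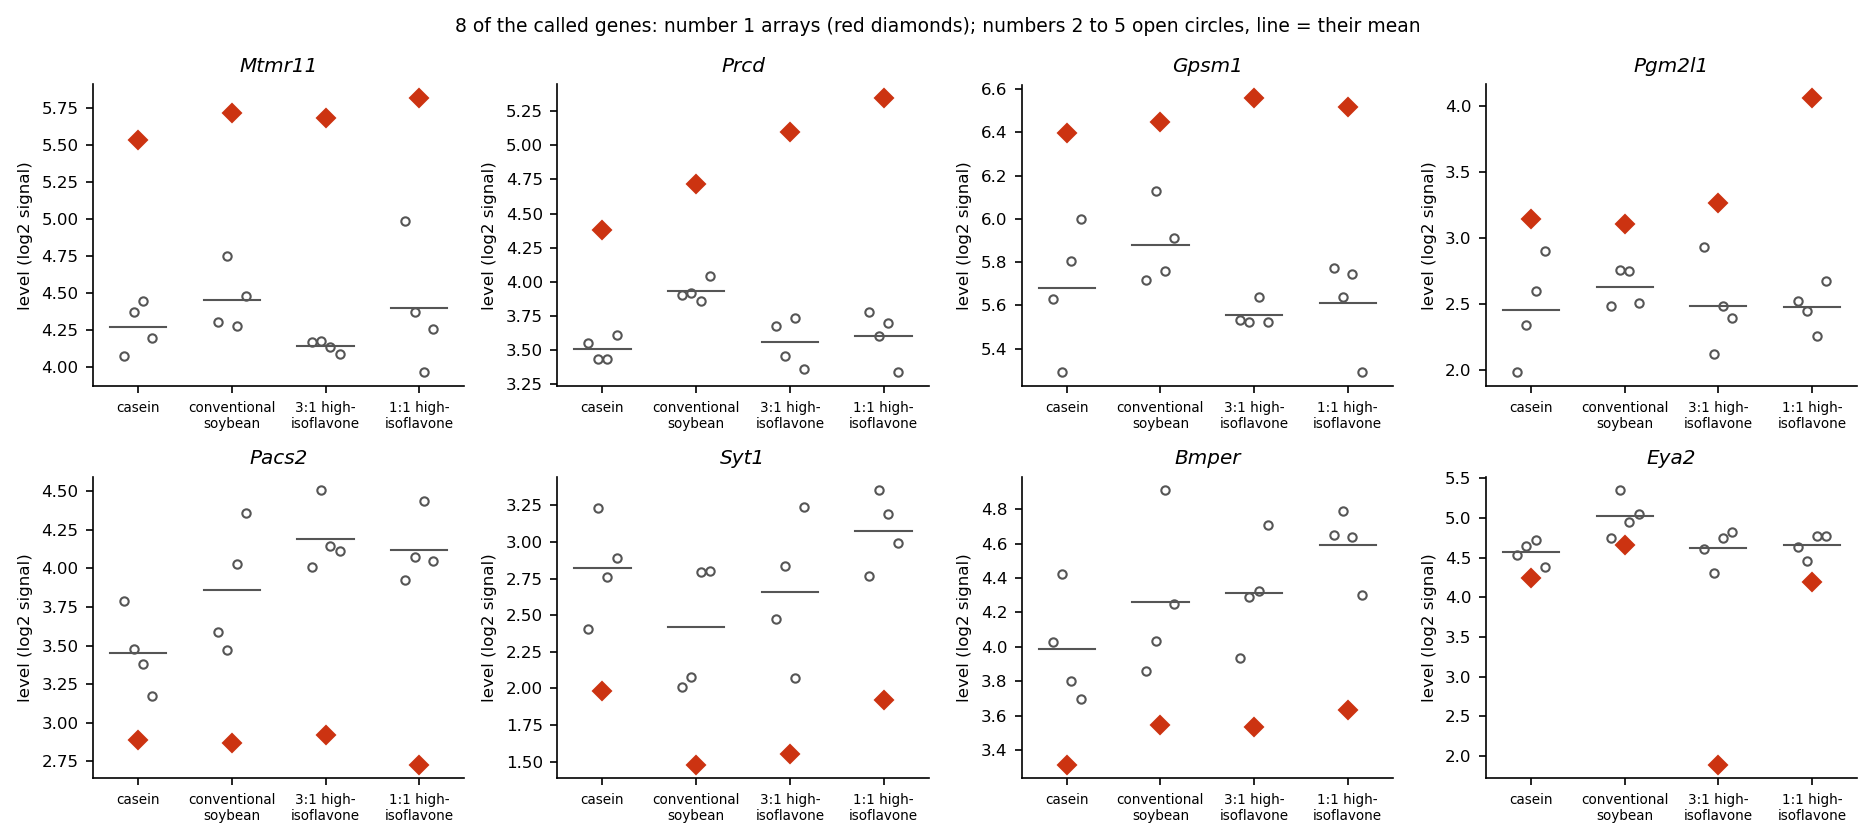
Log2 level of 8 called genes on each array by diet, with number 1 as a red diamond, numbers 2 to 5 as open circles and their mean as a line. For Mtmr11, Prcd, Gpsm1, Pgm2l1, Pacs2, Syt1 and Bmper the 4 number 1 arrays lie beyond all 16 others, and for Eya2 the 3:1 high-isoflavone array at 1.89 lies far below the other number 1 arrays.

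The 15 largest lower calls were taken in the same way. Among them Pacs2, which sorts proteins between the endoplasmic reticulum and mitochondria, had the smallest p. It read 2.89, 2.87, 2.92 and 2.73 on the number 1 arrays against a lowest of 3.17, a median of 4.02 and a highest of 4.50. The groups did not overlap (2.08-fold lower, log2 -1.06, SE 0.152, adjusted p = 0.00251), and a further probe set of the gene differed by 0.02. Syt1, a calcium sensor of synaptic vesicles, read 1.98, 1.48, 1.55 and 1.92 against 2.01 to 3.35, without overlap (2.01-fold lower, adjusted p = 0.0082). Asxl3, a chromatin regulator, read 2.83, 2.73, 2.54 and 2.44 against 2.97 to 4.81, and was the largest of these lower calls at 2.41-fold (adjusted p = 0.0252). Bmper, which binds bone morphogenetic proteins, read 3.31, 3.54, 3.54 and 3.63 against 3.70 to 4.91, and the neuronal transcription factor Myt1l 2.92, 2.25, 2.79 and 3.08 against 3.10 to 4.25. Both were separate from the others. Kiaa0408L and Zcchc12 were separate as well.

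Of the 15 largest lower calls 7 did not overlap, and neither did 7 of the 15 largest higher calls. These genes were chosen for large called differences, which favours separate groups. Over all tested probe sets 198 (0.715%) did not overlap, and 163 of these were among the 755 called. Ryr2, the calcium release channel of heart muscle, read 2.68, 3.21, 3.47 and 2.78 against 2.91 to 4.89, and Crym, which binds thyroid hormone in the cytosol, 3.19, 3.37, 3.5 and 3.26 against 2.69 to 5.68. In both, 1 of the 16 others was as low as number 1. Rapgef4, a cAMP-activated exchange factor, the adenosine receptor Adora1, the cold-induced RNA-binding protein Rbm3, Morc4 and Zfp282 were called lower with overlap. Another probe set went against the call in Ryr2 (0.33), Myt1l (0.09), Adora1 (0.44) and Zfp282 (0.15), and with it in Eya2 (-0.18). Of the 30 largest calls, 6 kept an adjusted p under 0.05 without the 1:1 high-isoflavone number 1 array: the 4 named above, Pacs2 (0.0421) and Myt1l (0.0421). The other 24 then had adjusted p values of 0.0653 to 0.265. Without the conventional soybean number 1 array 16 of the 30 lost the call, without that of the 3:1 high-isoflavone diet 13, and without that of casein 9. With the dap spike-in as a covariate, which overlaps with number 1, 25 lost it.

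The interaction of number 1 with diet, in which each diet has 1 number 1 array whose spread is taken from the other arrays, was called for 1 gene and rested on 1 array. Eya2, a phosphatase and coactivator of transcription, read 4.24, 4.66 and 4.20 on the casein, conventional soybean and 1:1 high-isoflavone number 1 arrays, just below the 4.38 to 4.72, 4.75 to 5.34 and 4.46 to 4.78 of the others of those diets. On the 3:1 high-isoflavone number 1 array it read 1.89 against 4.31 to 4.82. The interaction had an adjusted p of 0.0143, and 1032 probe sets (3.73%) had an unadjusted p under 0.05. Without the 3:1 high-isoflavone array the difference of Eya2 was -0.38 (adjusted p = 0.114), and its call was also lost without number 1 of the 1:1 high-isoflavone (0.0998) or conventional soybean diet (0.0541), casein number 4 (0.0502) or 1:1 high-isoflavone number 4 (0.0506). Of the 755 called probe sets 742 (98.3%) had the same sign in all 4 diets, a share that the call over the same arrays largely sets. Over all 27702 tested probe sets it was 7787 (28.1%).

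Among the 10% of probe sets with the highest mean, 37 genes were called higher and 15 lower. Of the 2771 probe sets in this group 2.42% were called higher and 1.12% lower, near the 1.86% and 0.863% of all probe sets. The examples are named here after their values were seen. Mif, the macrophage migration inhibitory factor, read 7.04, 8.05, 8.04 and 8.25 against 6.79 to 7.80 with a median of 7.19 (1.51-fold higher, log2 0.59, SE 0.14, adjusted p = 0.0274). The casein array lay inside the range of the others. Cmtm4, a membrane protein of the chemokine-like factor family, read 7.60, 7.38, 7.51 and 7.66 against 7.78 to 8.48, with no overlap (1.48-fold lower, adjusted p = 0.0121). Eci3, an enoyl-CoA isomerase of fatty acid oxidation, read 6.35, 6.41, 6.39 and 6.28 against 6.55 to 6.90, also with no overlap (1.33-fold lower, log2 -0.41, adjusted p = 0.0073). Adtrp read 6.68, 6.33, 6.48 and 6.38 against 6.58 to 6.95 (1.23-fold lower, adjusted p = 0.0345). Cklf, the highest-level called gene, read 8.60, 8.82, 8.65 and 9.01 against 8.06 to 8.83 (1.31-fold higher, adjusted p = 0.0446), while its other probe sets differed by -0.34 and -0.31.

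Further probe sets of the called genes lay on the side of the call about as often as pairs of probe sets in general. Of 167 other probe sets of 115 called genes, 91 (54.5%) had the same sign, against 53.9% over all 5685 such pairs on the array. Turned to the direction of the call, their median difference was 0.049, where the called probe sets had a median size of 0.516. The other probe set was itself called with the same sign in Akr1b10 and Mpp3, a scaffold protein of cell membranes (log2 -0.56 and -0.89), and with the opposite sign in the zinc finger gene Zfp704 (0.59 and -0.64). With both probe sets at or above the median level, 25 of 52 (48.1%) had the same sign, against 57.3% of all such pairs. For the comparison of conventional soybean with casein on the same arrays, 67 of 92 other probe sets (72.8%) had the same sign, against 60.8% over all pairs, and 20 were called too. Probe sets without 1 gene symbol were called in 330 of 8555 cases (3.86%) and those with 1 symbol in 425 of 19147 (2.22%).

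**Figure D4:**
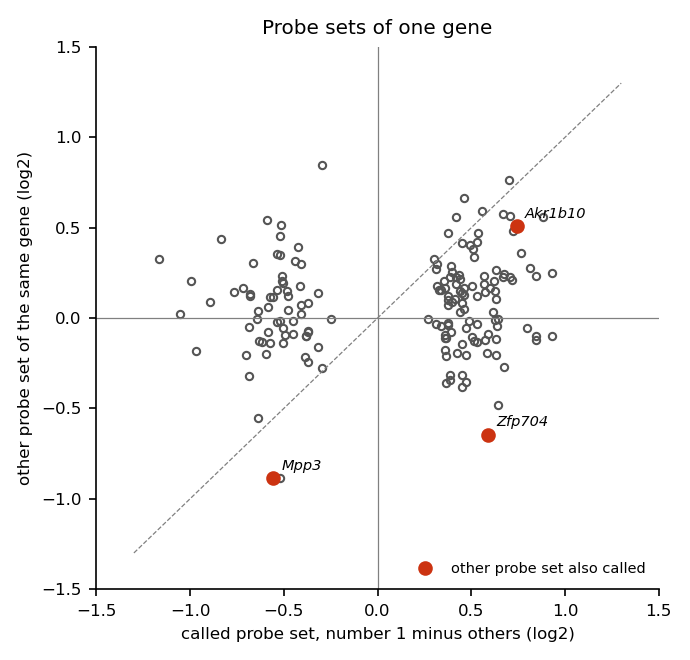
Number 1 minus the others (log2) for the called probe set of a gene (horizontal) and for each other probe set of that gene (vertical), 167 points from 115 genes; red points are also called on the other probe set. The points spread about evenly above and below 0 on the vertical axis, with 91 of 167 on the side of the call.

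The functional lists held few of the called genes. Of 792 genes in 48 lists of functions and cell type markers, 4 were called (0.505%), against 326 of 12670 genes in no list (2.57%) and 330 of all 13462 genes (2.45%). Listed genes had a median level of 4.35 and the rest 2.76. Within the 10% of probe sets with the highest mean, none of 394 listed genes was called by limma, against 52 of 1618 unlisted genes (3.21%). Levels still differed there, with a median of 6.5 for listed and 5.25 for unlisted genes. At an unadjusted p under 0.05 the shares were close, with 64 of the 394 (16.2%) and 270 of the 1618 (16.7%). In 44 of the 48 lists no member was called. The 4 called genes were in different lists, and each lost its call without the 1:1 high-isoflavone number 1 array.

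Myc, the growth regulator among the immediate early genes, read 2.22, 3.80, 2.68 and 3.44 against 1.07 to 2.92 with a median of 1.93 (2.14-fold higher, adjusted p = 0.0274, and 0.186 without the 1:1 high-isoflavone number 1 array). It was clearly above the others on the conventional soybean and 1:1 high-isoflavone arrays and within their range on the other two. Slc30a10, a manganese exporter, read 3.31, 3.53, 3.4 and 3.34 against 3.39 to 4.16 (log2 -0.37, adjusted p = 0.0312, and 0.22 without that array). The pancreatic enzyme Cpa1 read 2.5, 2.70, 2.34 and 2.81 against 1.84 to 2.43 (log2 0.45, adjusted p = 0.0254, and 0.2 without it), and it was the 1 called member of 10 pancreas markers. Plin1, which coats fat droplets in adipocytes, read 1.43, 0.807, 1.35 and 1.46 against 1.34 to 2.49 (log2 -0.59, adjusted p = 0.0272, and 0.173 without it), and its other probe set differed by 0.55. The calls of these genes were also lost without the conventional soybean number 1 array (adjusted p of 0.137 for Myc, 0.0732 for Slc30a10, 0.0944 for Cpa1 and 0.13 for Plin1). Without the 3:1 high-isoflavone number 1 array Myc (0.0508), Slc30a10 (0.123) and Plin1 (0.0948) lost theirs, and without that of casein Cpa1 (0.0608) did. Further immediate early genes did not pass: Nr4a1 differed by 0.39 (adjusted p = 0.0626), Zfp36 by 0.38 (adjusted p = 0.0885) and Nr4a3 by 0.37 (adjusted p = 0.11), with 18 of 24 members above 0 and a list median of 0.10, which was 0.04 after quantile normalization and 0.05 with scaling. The median was -0.08 on the casein array. Over all genes the median difference was -0.00238, and 49.5% lay above 0.

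Several lists of cell machinery and metabolism leaned to 1 side by small amounts with no member called. Cytosolic ribosomal proteins had 39 of 41 members above 0 and a median of 0.11, with diet medians of 0.07 for casein, 0.15 for conventional soybean, 0.10 for 3:1 and 0.11 for 1:1 high-isoflavone. At an unadjusted p under 0.05 were 9 of the 41, against 18% of all genes, and the smallest p belonged to Rpl13a, a large-subunit protein that went the other way (7.26, 7.45, 7.40 and 7.40 against 7.30 to 7.82; log2 -0.23, adjusted p = 0.0743). The median of the list was 0.25 on arrays centred and scaled to a common interquartile range and -0.0085 with the dap spike-in as a covariate. Subunits of the respiratory chain and ATP synthase had 52 of 65 members below 0 and a median of -0.06, which became 0.06 once arrays were centred and scaled to a common interquartile range. The member of smallest p was Cox5a, a subunit of cytochrome c oxidase (log2 0.31, adjusted p = 0.0527). Scaling to a common interquartile range widens the number 1 arrays about their median, so it raises high-level genes there most. Before scaling, the 95th percentile of levels differed by -0.0103.

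Fatty acid oxidation and targets of PPAR-alpha, the receptor that turns on this pathway in fasting, had 22 of 24 members below 0 and a median of -0.12. The diet medians were -0.16, 0.00, -0.19 and -0.26 in the order casein, conventional soybean, 3:1 and 1:1 high-isoflavone, and the list median stayed below 0 in all 31 settings. It shrank to -0.03, with 9 of 24 members above 0, once arrays were centred and scaled to a common interquartile range. Cpt1a, which carries fatty acids into mitochondria, read 6.82, 5.19, 5.70 and 5.92 against 5.34 to 7.48 with a median of 6.62 (log2 -0.72, SE 0.21, adjusted p = 0.0637), and its other probe set differed by -0.59. The casein array was thus as high as the others and the conventional soybean array the lowest of the 20. Cyp4a1, a fatty acid hydroxylase, differed by -0.38 (adjusted p = 0.148) and Acadvl, the first enzyme of very long-chain oxidation, by -0.16 (adjusted p = 0.163). Other genes of smallest p in their lists did not pass either. Apoa4, an apolipoprotein, read 8.52, 8.67, 8.70 and 8.59 against 8.40 to 9.27 (log2 -0.37, adjusted p = 0.0508), Bhmt, which remethylates homocysteine, differed by -0.55 (adjusted p = 0.0576) and Abcb11, the bile salt export pump, by -0.31 (adjusted p = 0.0704). Lipogenesis genes had medians of -0.42 and -0.41 on the casein and 1:1 high-isoflavone number 1 arrays and 0.34 and 0.07 on the conventional soybean and 3:1 high-isoflavone ones, single arrays whose difference was not tested for the list.

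Interferon response genes read differently on single number 1 arrays, and a difference between diets was not tested for the list. Of 20 genes induced by interferons 18 lay below 0, with a median of -0.30 and no call, but the number 1 arrays of casein and of 3:1 high-isoflavone had medians of 0.18 and 0.17, and those of conventional soybean and 1:1 high-isoflavone -0.74 and -0.56. Irf7, a transcription factor of the pathway, read 4.4, 2.75, 3.66 and 2.32 against 3.45 to 4.54. Usp18, which restrains interferon signalling, read 3.56, 1.44, 2.84 and 0.451 against 2.07 to 3.98, and Isg15, a ubiquitin-like protein, 3.96, 2.31, 3.62 and 2.12 against 2.65 to 4.19. In all 3 genes the conventional soybean and 1:1 high-isoflavone arrays were below all 16 others, and the other number 1 arrays were within their range. The 3 genes were picked from the 20 after their values were seen, and the share of members with this pattern is not given. The interaction of number 1 with diet did not pass for any of the 3 (adjusted p = 0.954 for Irf7, 0.856 for Usp18 and 0.9999 for Isg15). Irf9 had the smallest p of the list (log2 -0.44, adjusted p = 0.0836). Genes of NF-kappa-B and inflammation had 12 of 15 members above 0 and a median of 0.13 (0.08 after quantile normalization), led by the inhibitor Nfkbia (log2 0.39, adjusted p = 0.0774). Targets of the antioxidant factor NRF2 had 13 of 18 above 0, led by Gclc of glutathione synthesis (log2 0.49, adjusted p = 0.128), with the casein array on the other side (-0.11).

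**Figure D5:**
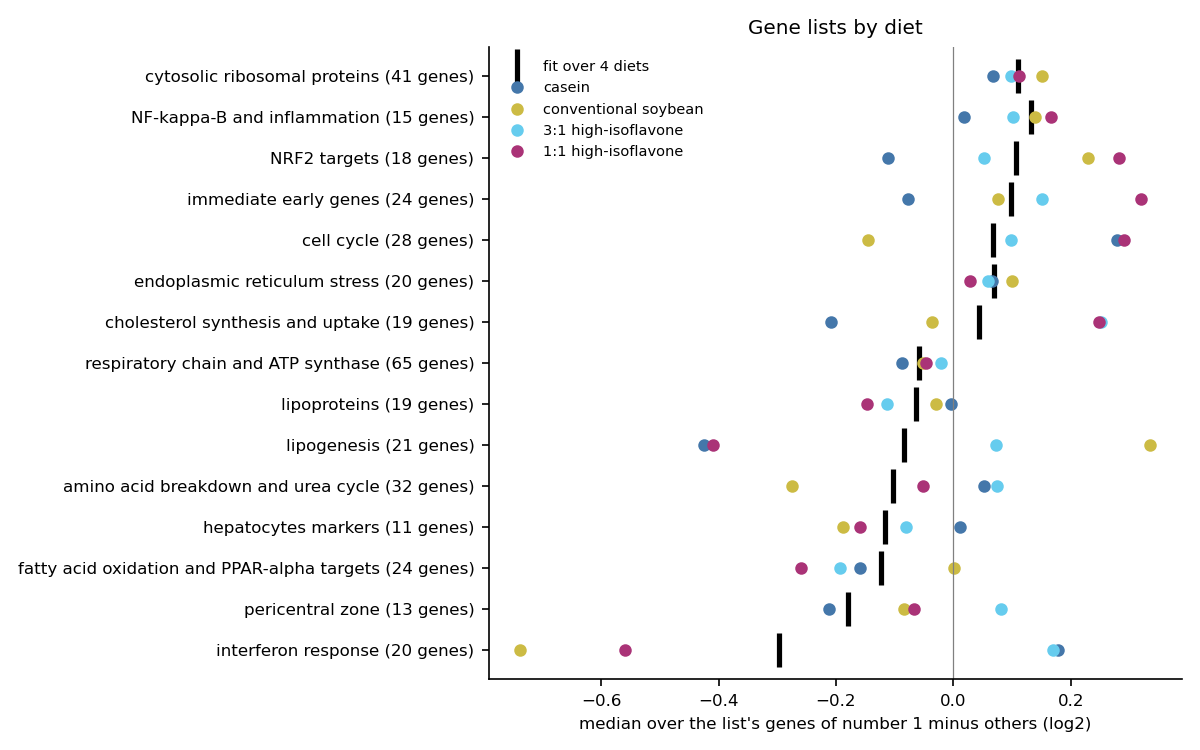
Median over the genes of a list of number 1 minus the others (log2), by diet (coloured points) and in the fit over 4 diets (black bars), for 15 of the 48 lists chosen after their values were seen. Ribosomal proteins lie above 0 and the respiratory chain below 0 in all 4 diets, while the interferon response lies at 0.18 and 0.17 in 2 diets and at -0.74 and -0.56 in the other 2; the medians of the respiratory chain, lipoproteins, amino acid breakdown and hepatocyte markers turn positive when arrays are scaled to a common interquartile range.

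Markers of the cells in a liver sample gave no called member outside pancreas and adipose tissue. Hepatocyte markers had high levels on every array, with a mean of 9.12 to 9.34 on number 1 and 9.20 to 9.39 on the others. Albumin (Alb) read 10, 10.1, 10.2 and 10.1 on the number 1 arrays, inside the 9.91 to 10.5 of the others. Of 11 hepatocyte markers 10 lay below 0, with a median of -0.12 that became 0.11 on arrays scaled to a common interquartile range. That scaling raises such high-level genes on number 1 most. Macrophage markers had a mean level of 4.24 to 4.65 on number 1 and 4.02 to 5.06 on the others (7 of 10 above 0), endothelial markers 3.36 to 3.52 and 3.28 to 3.67 (4 of 9 above 0), and stellate cell markers 3.17 to 3.29 and 3.11 to 3.67 (4 of 12 above 0). Lymphocyte markers were above 0 in 10 of 13, neutrophil markers in 5 of 7 and red blood cell markers in 6 of 7. Skeletal muscle markers were below 0 in 8 of 9, with means of 2.99 to 3.30 on number 1 inside the 2.28 to 4.35 of the others. The mean level of number 1 left the range of the others in 3 of the 11 marker lists, where its lowest array lay below them: hepatocytes, bile duct cells (2.03 to 2.5 against 2.24 to 2.58) and adipose tissue (2.51 to 3.06 against 2.58 to 3.13). The part of cell composition in the called genes was not tested.

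Probe sets chosen in 3 diets were then read in the diet left out. Chosen without casein, 303 higher and 122 lower calls had the same sign on the casein arrays in 86.8% and 80.3% of cases, with medians of 0.33 and -0.36, where 45.8% of all probe sets lay above 0. Without the conventional soybean diet, 98 and 62 calls kept their sign in 94.9% and 88.7%, with medians of 0.48 and -0.46. Without the 3:1 high-isoflavone diet, 91 and 72 calls kept it in 90.1% and 88.9%, with medians of 0.48 and -0.41. Without the 1:1 high-isoflavone diet, 12 and 7 probe sets were called, and all 19 had the same sign on its arrays, with medians of 1.09 and -0.65. The 1:1 high-isoflavone number 1 array thus showed the largest differences on probe sets it had not chosen: the 100 of smallest p in each direction had medians of 0.68 and -0.50 there, against 0.36 and -0.37 on the casein array.

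Arrays of number 1 deviated together from their diet means. Over probe sets, the correlation of deviations between the number 1 arrays of different diets was 0.203 to 0.401 with a median of 0.257, and all 6 pairs were above 0.1. The medians for numbers 2, 3, 4 and 5 were -0.036, -0.038, 0.096 and 0.020, with 1, 1, 3 and 1 of 6 pairs above 0.1. Over 120 pairs of different number and diet the median was -0.0077, with a range of -0.329 to 0.287 and 16 pairs above 0.1. Among these, casein number 5 correlated with number 1 of the conventional soybean (0.134), 3:1 (0.16) and 1:1 high-isoflavone (0.202) diets, so the shared deviation was not confined to number 1. Each of the 4 number 1 arrays deviated most like the number 1 arrays of the other diets, which held for 3 of the 16 others with their own number. These correlations are over probe sets that share arrays, level and normalization, and carry no test.

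Number 1 took up spread that the diet comparisons otherwise carry as error. With number 1 as a term, conventional soybean against casein had 618 called probe sets (2.23%), against 453 without it, all 453 among the 618. The 1:1 high-isoflavone diet against casein had 757 (2.73%) against 613, again all among the 757. The 3:1 high-isoflavone diet against casein had 10 (0.0361%) against 11. Of the 755 probe sets called for number 1, 24 were also called for conventional soybean (3.18% of the 755 and 3.88% of the 618) and 23 for the 1:1 high-isoflavone diet (3.05% and 3.04%). None was called for the 3:1 high-isoflavone diet.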

How the data were processed

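Liver RNA of 20 rats was measured on 20 single-colour arrays. The authors deposited 1 table of log10 values, made with the SuperNORM data service per the labels. No label names the base: hybridisation spike-ins rose with a slope of 0.998 (SD 0.0236, 20 arrays) per log10 unit of amount, and the values were turned into log2. The sources used here do not say how probes were summarised. The table held 31099 probe sets; 57 controls and 3342 without a value (2 both) were left out, so 27702 were tested. Symbols were taken from the platform's annotation (19147 with 1 symbol, 404 with several, 8151 with none), and each gene was read on its probe set of highest mean (13462 genes). Of 927 listed symbols 792 matched.

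Number 1 against the others was fitted with limma 3.58.1 in R 4.3.3, with diet as a covariate, eBayes with trend, two-sided, and Benjamini-Hochberg adjustment over 27702 probe sets; calls have an adjusted p under 0.05. The fit was tested on simulated data with independent noise for each probe set. Such data lack the deviations that arrays share over probe sets, so the calls that these can give were not tested. Whole-array measures were tested by exact permutation within diets. Genes named are the 15 largest called differences each way among genes at or above the median level with the same sign in 4 diets, and in each list up to 3 called members or the 1 of smallest p; others are said to have been chosen after their values were seen, or illustrate a list. The members and lists were chosen with earlier results of these data known. The labels describe the arrays as biological replicates, so p-values measure the spread between rats together with array handling. No pair of arrays was identical. Depth does not apply to arrays; their number limits the precision.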

Additional observations from a re-analysis of the deposited data

Results flagged for a closer look

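Within groups of 4 or 5 arrays, 33 of 245 sets of values (30 genes and 19 whole-array measures) held 1 array far from the rest by Dixon's criterion, where chance flags about 1 in 20. Of the 27 in diet groups 22 were number 1 arrays; the genes had been chosen for that difference, so their share is no independent count. High number 1 arrays were found for Mtmr11 (5.54 in casein, 5.68 in 3:1 high-isoflavone), Prcd (4.38, 4.72, 5.1 and 5.34 in the 4 diets), LOC102547703 (4.13 in casein, 4.87 in conventional soybean), Myoz2 (4.68), Gpsm1 (6.56) and Zc2hc1b (3.35) in 3:1 high-isoflavone, Pgm2l1 (4.06, also far from the other number 1 arrays) and Kcnk9 (4.1) in 1:1 high-isoflavone, and Akr1b10 (3.53) in conventional soybean. Low number 1 arrays were found for Asxl3 (2.44), Ryr2 (2.78) and Myt1l (3.08) in 1:1 high-isoflavone and Eya2 (1.89) in 3:1 high-isoflavone. Akr1b10 was low on casein number 2 (1.76). Among the number 1 arrays, that of conventional soybean was low for Rbm3 (2) and Zcchc12 (2.97).

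For whole arrays, the 3:1 high-isoflavone number 1 array stood apart in its 1st percentile (0.7), lowest value (0.471), beta-actin 3′ minus 5′ signal (2.13) and, among number 1 arrays, beta-actin middle signal (5.63). Conventional soybean number 1 stood apart in its 5th percentile (1.11), casein number 5 in its lowest value (0.447), casein number 3 (7) and 1:1 high-isoflavone number 5 (4.66) in the beta-actin middle signal, conventional soybean number 5 in the GAPDH middle signal (8.56) and 1:1 high-isoflavone number 1 in the bioD spike-in (7.24). The interaction of number 1 with diet passed for Eya2 (adjusted p = 0.0143) and rests on the 1 array at 1.89.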

How the results depend on the processing

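Of the alternatives to the 755 called probe sets, quantile normalization gave 936 (697 shared), centring with scaling 1104 (724 shared) and centring alone 837 (712 shared). Array weights gave 1350, no diet covariate 485, leaving out the 2 higher-floor arrays 481 and, chosen after seeing the data, the dap spike-in as a covariate 176. Leaving out 1 array at a time gave 32 to 1184. A random replicate block on numbers 1 to 5 (estimated correlation -0.0317) gave 1321 called probe sets, all 755 included. Number 1 is itself a level of this block, and a negative correlation lowers the error of such a contrast. The larger count is therefore no support for the calls. As a fixed replicate block, the numbers gave 23 calls for the 3:1 high-isoflavone diet against casein in place of 10, 591 in place of 618 for conventional soybean and 659 in place of 757 for 1:1 high-isoflavone; 7 of 20 arrays deviated most like their own number, so the numbers do not pair the rats in general. The interaction had 3 calls after quantile normalization and 2 without trend, Eya2 among them in both. The median correlation of number 1 was 0.34 without the 2 higher-floor arrays. Without them the interquartile range (-0.0428), the 5th percentile (0.114) and dap (-0.461) lost adjusted significance. Signs turned for Gar1 (-0.006) and Clec4f (-0.0229) with the dap covariate, Ttr (0.0884) with scaling, and the beta-actin 3′ minus 5′ (-0.097) and middle (0.126) signals without the 2 arrays; none of these had passed. The medians read in left-out diets moved by less than their spread. Of 2373 refits of the 77 named genes 2130 kept their sign and side, 162 lost a call, 78 gained one and 3 turned. List medians turned sign in at least 1 of 31 settings in 32 of 48 lists. With 4 arrays against 16, and 1 number 1 array per diet, a difference within 1 diet has no replicate.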
